A study of Mus musculus with 6 samples.

Results

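The 6 miRNAs described here are often taken as references when miRNAs of blood are measured, and were followed in serum exosomes of mice. They are mmu-miR-103-3p, which the study used as its qPCR reference in serum, mmu-miR-107-3p, which is nearly identical to it, mmu-miR-191-5p, mmu-miR-425-5p, and both arms of the miR-423 hairpin, mmu-miR-423-5p and mmu-miR-423-3p. The species prefix is left out below. The members were chosen by name, and these 6 rows are part of 1982 rows of counts, of which 954 had at least 1 count. Exosomes are small vesicles that cells shed into the blood. They were pelleted from serum of 6 male C57BL/6 mice aged 3 months, and small RNA was sequenced for each mouse. The 3 Acu/LFES mice (mice 4, 5 and 6) had acupuncture needles in the hindlimb with low frequency current, applied once, and the 3 sham mice (mice 1, 2 and 3) had needles placed nearby and wired to the device, without current. All mice were of the same strain, sex and age, and no other agent is named for them in the labels. The pellet holds vesicles from every tissue that releases them, so fewer vesicles of a source and less of a miRNA per vesicle cannot be told apart.

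A miRNA is cut from a hairpin RNA, and either arm of the hairpin can be kept as the mature strand. Bases 2 to 8 of the mature strand, the seed, pair with target mRNAs. A reference miRNA serves as the denominator against which another miRNA is expressed, so it is useful only where its own level differs little between the samples compared. miR-103 and miR-107 lie inside genes of pantothenate kinases, which start the synthesis of coenzyme A, and miR-191 and miR-425 are made from neighbouring hairpins.

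The mature sequences are shown because reads of miR-103-3p and miR-107-3p can be told apart only near the 3′ end, and because both miR-423 strands come from a single hairpin. All 6 matched RefSeq (GRCm38.p6). Capitals mark the seed:
mmu-miR-103-3p: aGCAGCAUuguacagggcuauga
mmu-miR-107-3p: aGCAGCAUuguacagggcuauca
mmu-miR-191-5p: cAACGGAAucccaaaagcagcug
mmu-miR-425-5p: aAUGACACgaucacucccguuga
mmu-miR-423-5p: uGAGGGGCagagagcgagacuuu
mmu-miR-423-3p: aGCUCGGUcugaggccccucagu
Every member has 23 bases. miR-107-3p differs from miR-103-3p by G22C alone, with base 1 being the first at the 5′ side, so 22 of 23 bases are the same and the seed is shared. Among the mature mouse miRNAs of RefSeq, miR-191-5p and miR-423-3p had a seed that no other miRNA carried. miR-425-5p shared its seed with miR-489-3p and miR-423-5p with miR-6921-5p, both of which had 0 counts in every mouse. The content of G and C was 47.8% in miR-103-3p, miR-107-3p and miR-425-5p, 52.2% in miR-191-5p, 56.5% in miR-423-5p and 65.2% in miR-423-3p.

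In GRCm38 with the GENCODE M21 annotation, miR-103-3p comes from a pair of genes. Mir103-1 (chromosome 11, 35782396 to 35782481) is intronic in Pank3, and Mir103-2 (chromosome 2, 131288052 to 131288137) is intronic in Pank2. Mir107 (chromosome 19, 34820687 to 34820773) is intronic in Pank1. Mir191, on chromosome 9 from 108568319 to 108568392, and Mir425, from 108568777 to 108568861, are 384 bases apart within the noncoding gene 4833445I07Rik, where Mir425 is exonic and Mir191 is exonic in 1 transcript and intronic in another. Mir423 (chromosome 11, 77078064 to 77078172) is intronic in Nsrp1, which encodes a protein of nuclear speckles. Each hairpin has the strand of the host named, and a predicted miRNA gene, Gm24083, lies opposite Mir191.

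Library totals ranged from 391708 to 1504137 counts, and the 6 members together took between 0.530% and 1.13% of them. miR-486a-5p, listed here with the red-cell markers, and miR-486b-5p together took between 61.7% and 74.0% of counts in 5 mice and 29.2% in mouse 6. Their rows held the same count in every mouse, so the same reads may stand in both. The shares and library totals given here add both rows. edgeR's TMM factors, which set the scale of a library after the most extreme ratios are trimmed, ranged from 0.65 to 2.12. Values below are CPM, that is, counts scaled to a common library size after multiplying each total by this factor. The summed red-cell markers spanned 278837 to 570039 CPM in sham and 69974 to 483610 CPM in Acu/LFES mice, the platelet markers 3542 to 5286 and 3589 to 4806, the white-cell markers 4012 to 5202 and 2543 to 4417, and the skeletal muscle markers 10092 to 11258 and 7475 to 12447. Nearly all of the red-cell sum was miR-486a-5p, with a sham mean of 435650 CPM against 1043 for miR-451a and 191 for miR-144-5p. The log2 difference of miR-486a-5p was -0.66, whereas those of miR-451a and miR-144-5p were 0.34 and 0.54. The liver miRNA miR-122-5p spanned 7325 to 20828 CPM in sham and 1693 to 15312 CPM in Acu/LFES mice. All of these ranges overlap between the groups. A single marker, listed here for platelets, did not: miR-126a-5p spanned 1923 to 2148 CPM in sham and 1302 to 1737 CPM in Acu/LFES mice (log2 difference -0.41, edgeR adjusted p = 0.568). Over all 259 miRNAs tested, the groups did not overlap in 44 (17.0%). Of the markers tested, 3 of 4 for red cells, 3 of 3 for platelets, 4 of 4 for white cells, 1 of 1 for liver and 3 of 5 for muscle, 0 had an unadjusted p under 0.05. Of the markers too low to be tested, miR-208b-3p had 0 counts in every mouse and miR-144-3p at most 3. The muscle miRNA miR-499-5p had 0 counts in every sham mouse and in mouse 5, 51 in mouse 4 and 20 in mouse 6. The log2 differences of the 3 tested muscle markers were -0.01 for miR-1a-3p (SE 0.33), -0.04 for miR-133a-3p (SE 0.25) and -0.77 for miR-206-3p (SE 0.51). The part of these sources in the values of the reference miRNAs was not tested.

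The first question was how abundant the reference miRNAs were. miR-423-5p was the most counted, with a mean of 4259.7 CPM over the 6 mice and place 27 among all rows by summed count. It was followed by miR-191-5p with 1122 CPM, miR-103-3p with 822 CPM, miR-423-3p with 400.1 CPM and miR-425-5p with 217 CPM. The order of miR-191-5p and miR-103-3p is not fixed by these means, since miR-103-3p was the higher in mice 2 and 4 and miR-191-5p in mice 1, 3, 5 and 6. miR-423-3p was the higher of it and miR-425-5p in 5 of 6 mice, all but mouse 3. miR-107-3p had 45 counts in all.

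**Figure D1:**
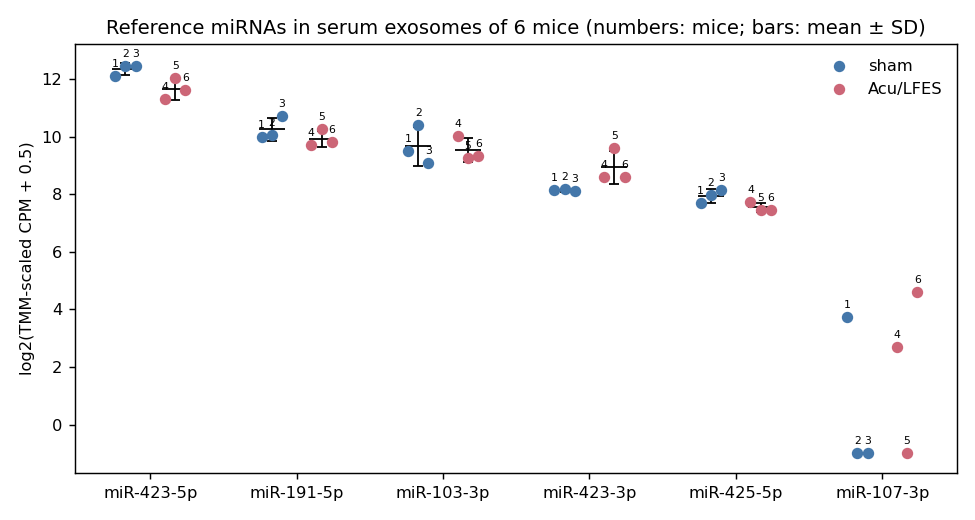
Level of each reference miRNA in each mouse, as log2 of TMM-scaled CPM plus 0.5, with sham mice in blue and Acu/LFES mice in red. Numbers name the mice, and black bars give the group mean ± SD, left out for miR-107-3p. miR-423-5p of the Acu/LFES mice lies below and miR-423-3p above all sham mice, whereas the groups overlap in the others.

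miR-103-3p, the reference of the study's qPCR, was among the less steady of the members. It stood at 728, 1369 and 539 CPM in sham mice 1, 2 and 3 and at 1036, 611 and 647 CPM in Acu/LFES mice 4, 5 and 6. The groups overlapped, and the highest mouse (sham mouse 2) had 2.54 times the level of the lowest (sham mouse 3). The group means were 879 ± 435 CPM (sham) and 765 ± 236 CPM (Acu/LFES), each over n = 3 with the SD. On the log2 scale the fitted difference, Acu/LFES over sham, was -0.20 with a standard error of 0.37 (quasi-likelihood test of edgeR, Benjamini-Hochberg adjusted p = 0.919). Its 95% interval, from -1.03 to 0.63, spans values well below and well above 0. Without sham mouse 2 the log2 fold change was 0.27, so its sign rested on that mouse.

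miR-107-3p, the near copy, had 9, 0 and 0 counts without current and 10, 0 and 26 with current, too few to be tested. Its share of the counts of miR-103-3p and miR-107-3p together was 1.75% in mouse 1 (exact 95% binomial interval 0.804% to 3.30%), 0.574% in mouse 4 (0.276% to 1.05%) and 3.54% in mouse 6 (2.32% to 5.14%). The intervals of mice 4 and 6, of the same group, do not overlap. The 0 counts in mice 2, 3 and 5 allow shares of up to 0.511%, 1.84% and 1.02%, taking 3 counts as the limit. These intervals cover counting error only. With both rows added, the fitted log2 difference was -0.19 (adjusted p = 0.924 in the same edgeR test), close to that of miR-103-3p alone. The opposite arms miR-103-1-5p and miR-103-2-5p had 0 counts in every mouse, and miR-107-5p had 1 count, in mouse 1.

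miR-191-5p stood at 1009, 1071 and 1695 CPM without current and at 835, 1221 and 902 CPM with current. Sham mouse 3 was the highest and the groups overlapped. The means were 1258 ± 380 CPM and 986 ± 206 CPM (SD, n = 3 each), a log2 fold change of -0.35 with a 95% interval from -0.98 to 0.28 (adjusted p = 0.786, edgeR). Without sham mouse 3 it was -0.05.

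miR-425-5p, from the neighbouring hairpin, stood at 206, 250 and 284 CPM without current and at 213, 175 and 177 CPM with current. Mice 5 and 6 lay below every sham mouse, but mouse 4 lay above sham mouse 1. The means were 247 ± 39.1 CPM and 188 ± 21.5 CPM (SD, n = 3 each), and the log2 fold change was -0.39 with a 95% interval from -1.16 to 0.39 (adjusted p = 0.799, edgeR). Its opposite arm, miR-425-3p, had between 16 and 153 counts, and its log2 difference was 0.14 (SE 0.67, adjusted p = 0.967, edgeR). miR-425-5p made up between 75.7% and 84.0% of the counts of both arms in 5 mice and 55.9% in mouse 6 (exact 95% binomial interval 50.5% to 61.2%). miR-191-3p, the other arm of miR-191, had 22 counts in mice 1 and 4, 1 in mouse 2 and 0 in the remaining mice.

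The arms of miR-423 lay on opposite sides of the sham mice. miR-423-5p stood at 4403, 5671 and 5598 CPM without current and at 2517, 4175 and 3195 CPM with current. Every Acu/LFES mouse was below every sham mouse, although mouse 5 came close to sham mouse 1. The means were 5224 ± 712 CPM and 3296 ± 834 CPM (SD, n = 3 each), or -0.66 on the log2 scale (SE 0.25, 95% interval -1.23 to -0.10, edgeR's unadjusted p = 0.0252 and adjusted p = 0.503).

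miR-423-3p stood at 281, 292 and 274 CPM without current and at 391, 773 and 389 CPM with current. Here every Acu/LFES mouse was above every sham mouse, the sham mice were nearly level, and mouse 5 was the highest. The means were 282 ± 8.73 CPM and 518 ± 221 CPM (SD, n = 3 each), or 0.87 on the log2 scale (SE 0.35, 95% interval 0.10 to 1.64, edgeR's unadjusted p = 0.0307 and adjusted p = 0.518). Neither arm passed the adjusted threshold of 0.05, and the unadjusted p moved with single mice. It was above 0.05 for miR-423-5p without mouse 2 (0.0724), 3 (0.0908), 4 (0.0658) or 6 (0.0596), and for miR-423-3p without mouse 1 (0.0597), 2 (0.0509), 3 (0.0507) or 5 (0.10). The log2 difference of miR-423-5p lay between -0.83 and -0.50 in all fits without a single mouse. That of miR-423-3p was 0.51 without mouse 5 and between 0.88 and 1.08 in the other such fits.

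Across the table, 0 of 5 tested members and 0 of 259 tested miRNAs (0.00%) passed an adjusted p of 0.05 with edgeR, against 8 of the 259 and 0 members in DESeq2. At an unadjusted p under 0.05 the counts were 1 member lower (miR-423-5p) and 1 higher (miR-423-3p), against 23 of the 259 (8.88%), of which 8 were lower (3.09%) and 15 higher (5.79%). The groups did not overlap in 2 of the 5 tested members and in 44 of the 259 (17.0%). The median log2 fold change of the 5 was -0.35, with 4 negative and 1 positive, beside 0.05 over all miRNAs tested. The directions of miR-103-3p, miR-191-5p and miR-425-5p flipped with total counts in place of TMM factors, to 0.50, 0.27 and 0.29, while the median of all miRNAs moved to 0.71. The median of the members minus that of all miRNAs was -0.40 with TMM factors and -0.43 with total counts. With total counts that leave out miR-486a-5p and miR-486b-5p, the values were -0.06, -0.23 and -0.26. The difference of miR-423-5p was lost with total counts, at -0.02 (95% interval -1.10 to 1.06), and its groups overlapped, since mouse 6 stood at 6766 CPM of the unscaled library and the sham mice between 3689.9 and 4887. miR-423-3p was then at 1.37.

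**Figure D2:**
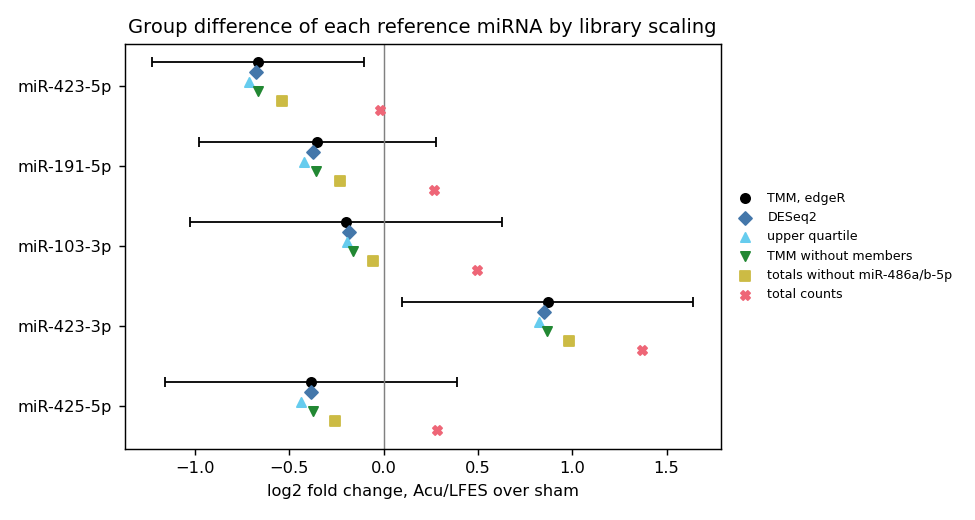
Log2 fold change of Acu/LFES over sham for the 5 tested members on the horizontal axis, with a symbol for each library scaling or test and the 95% interval of the edgeR fit with TMM factors as a black bar. Total counts shift every member to the right, and miR-423-3p lies right of 0 under each scaling drawn.

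The ratio of the miR-423 arms needs no library scaling. miR-423-5p had 15.7, 19.4 and 20.4 times the counts of miR-423-3p in sham mice 1, 2 and 3 and 6.43, 5.40 and 8.22 times in Acu/LFES mice 4, 5 and 6. The ranges are far apart relative to the spread within either group. As a share of both arms, miR-423-5p took 94.0%, 95.1% and 95.3% of counts without current and 86.5%, 84.4% and 89.2% with current, where the exact 95% binomial intervals of sham mice began at 93.1% or above and those of Acu/LFES mice ended at 90.1% or below. These intervals, too, cover counting error only, not the spread between mice. The mean share was 94.8% ± 0.714 and 86.7% ± 2.40 (SD, n = 3 each). The log2 ratio was 4.20 ± 0.20 in sham and 2.72 ± 0.30 in Acu/LFES mice, a difference of -1.48 (p = 0.1 by exact permutation, two-sided, which is the lowest value that 3 mice against 3 allow). Over the 10 pairs of members compared, its Benjamini-Hochberg adjusted p was 0.333. When single mice were left out, the difference stayed between -1.64 and -1.34.

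For background, chosen after this ratio was seen, the same ratio was taken for every hairpin with both arms counted at least 10 times in every library. Of these 16 hairpins, miR-423 was the only one whose groups did not overlap (6.25%), and its difference was second in size after miR-130b. The median size of the difference was 0.45. Among all 46 hairpins with both arms tested, low counts included and 0.5 added to each count, 6 did not overlap (13.0%), and miR-423 was at place 14 by size.

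The second question was how much each member varied over all 6 mice, which is what a reference is asked not to do. The SD of log2(CPM + 0.5) was 0.28 for miR-425-5p, 0.37 for miR-191-5p, 0.46 for miR-423-5p, 0.51 for miR-103-3p and 0.57 for miR-423-3p. Counting error alone would give 0.13, 0.06, 0.03, 0.07 and 0.10 in the same order, below the measured SD of each. From the steadiest down, miR-425-5p took place 23 of the 259 miRNAs tested, miR-191-5p place 44, miR-423-5p place 66, miR-103-3p place 79 and miR-423-3p place 98. The median SD was 0.46 over the tested members, 0.73 over all miRNAs tested and 0.48 over the 124 with a mean of at least 100 CPM. The median of the members was therefore close to that of the 124, which share a floor of 100 CPM but were not matched for abundance. miR-425-5p, miR-191-5p and miR-423-5p lay below the median of the 124, and miR-103-3p and miR-423-3p above.

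Single mice set part of this order. Without mouse 5 the SD of miR-423-3p was 0.26, and without mouse 3 that of miR-191-5p was 0.21. The SD of miR-103-3p went from 0.36 without mouse 2 to 0.57 without mouse 1. With total counts in place of TMM factors, miR-423-5p was the steadiest member with 0.46, and miR-425-5p was at 0.51. Within groups, the pooled SD was 0.57 for miR-103-3p, 0.40 for miR-423-3p, 0.35 for miR-191-5p, 0.30 for miR-423-5p and 0.20 for miR-425-5p.

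**Figure D3:**
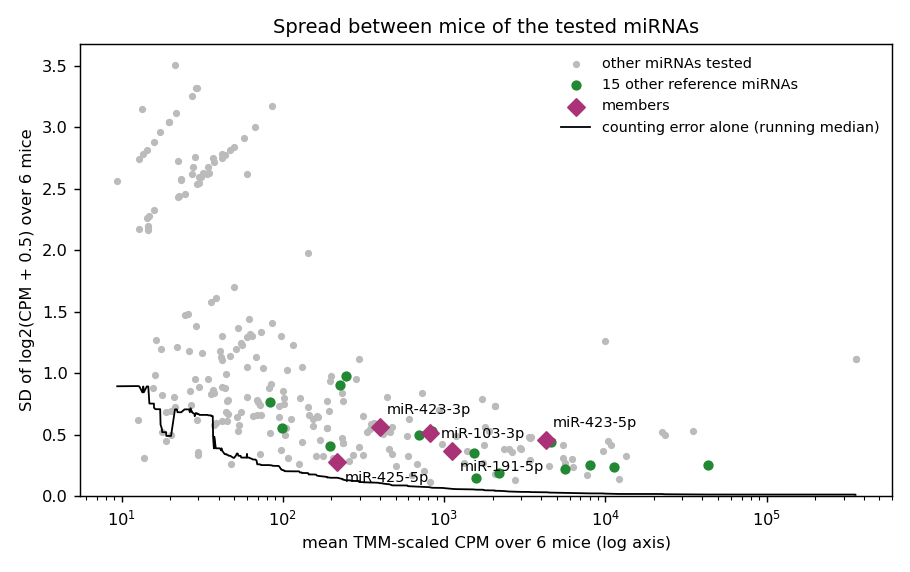
SD of log2(CPM + 0.5) over the 6 mice against mean CPM (log axis) for the 259 tested miRNAs, in grey, with 15 other reference miRNAs in green and the members as diamonds. The black line is a running median of the SD that counting alone would give, and all 5 tested members lie above it, between 0.28 and 0.57.

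The 15 other miRNAs listed as references in blood or tissue all had enough counts to be tested. Of these, 0 passed the adjusted threshold in either direction, 1 was higher at an unadjusted p under 0.05 (miR-148b-3p, log2 fold change 1.20) and 0 were lower, with a median of 0.15. The groups did not overlap in 1 of the 15, miR-26a-5p, against 44 of all 259 tested (17.0%). It spanned 1588.7 to 1831 CPM in sham and 1356 to 1588.4 CPM in Acu/LFES mice (log2 difference -0.19, edgeR adjusted p = 0.799). The SD of the 15 over the 6 mice ranged from 0.15 for miR-26a-5p to 0.97 for miR-152-3p, with a median of 0.40. miR-26a-5p, at place 4, miR-128-3p, with 0.19, miR-93-5p, with 0.22, let-7i-5p, with 0.24, and both miR-25-3p and miR-16-5p, with 0.25, had a smaller SD than every member. The 5 steadiest miRNAs of at least 100 CPM were miR-98-5p, miR-192-5p, miR-30d-5p, miR-26a-5p and miR-320-3p, with an SD between 0.12 and 0.17. These ranks hold for TMM-scaled values.

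Ratios between members show which of them moved together. The steadiest of the 10 log2 ratios was that of miR-423-5p to miR-191-5p, with an SD of 0.30 over the 6 mice, followed by miR-191-5p to miR-425-5p with 0.31. For the latter pair, from neighbouring hairpins, the counts stood at a ratio of 4.90, 4.29 and 5.97 without current and 3.92, 6.99 and 5.09 with current. The groups overlapped fully, with a difference of 0.05 on the log2 scale (two-sided exact permutation test, p = 0.9, adjusted p = 1 over 10 pairs). The widest ratio was that of miR-103-3p to miR-423-3p, with an SD of 0.86, from 0.790 in mouse 5 to 4.70 in mouse 2. Apart from the arm ratio, the groups did not overlap for miR-191-5p to miR-423-3p, with a difference of -1.13, and for miR-423-3p to miR-425-5p, with 1.18 (two-sided exact permutation tests, p = 0.1, adjusted p = 0.333 for each). All 3 ratios that separated the groups therefore hold miR-423-3p, and the remaining 7 did not separate them. Since the groups did not overlap in miR-423-3p itself, these 3 are not separate results. The share of such ratios over pairs of other miRNAs was not taken. The 5 pairs with miR-107-3p have no log ratio, since it had 0 counts in 3 mice.

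**Figure D4:**
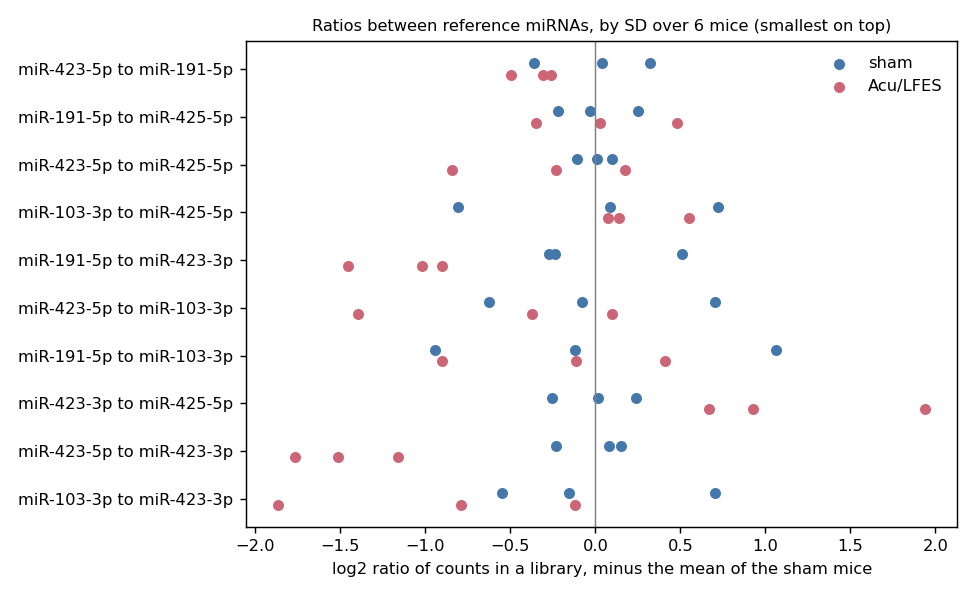
Log2 ratio of the counts of 2 members in each library, minus the mean of the sham mice, for the 10 pairs with counts in every mouse, with sham mice in blue and Acu/LFES mice in red. Pairs are ordered by SD over the 6 mice, from 0.30 at the top to 0.86 at the bottom, and the 3 pairs without overlap between groups contain miR-423-3p.

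The likeness of levels over the 6 mice was described by Pearson's r of log2(CPM + 0.5) with the 258 other tested miRNAs, with no test, since all points share 6 libraries and their scaling. The miRNAs most like miR-103-3p were miR-15b-5p (r = 0.97), miR-215-5p (0.85) and miR-30b-5p (0.82). miR-15b-5p holds, from its base 2, the same AGCAGCA with which miR-103-3p begins. These bases are its seed, which 9 other rows share, miR-16-5p among them, and none of these was among the 3 nearest. miR-191-5p holds AGCAGC and had an r of -0.52 with miR-103-3p. A link between shared bases and likeness was not tested. Those most like miR-191-5p were miR-10a-5p (0.98), miR-5099 (0.94) and miR-486a-3p (0.89), and those most like miR-425-5p were miR-8112 (0.90), miR-26b-5p (0.84) and miR-17-3p (0.84). For miR-423-5p they were miR-337-5p (0.90), let-7k (0.88) and miR-192-5p (0.88), and for miR-423-3p they were miR-3960 (0.91), miR-181d-5p (0.88) and miR-185-5p (0.87). No member was among the 3 nearest of another. The closest pair of members was miR-191-5p and miR-423-5p (0.76), miR-191-5p and miR-425-5p had 0.58, and the arms of miR-423 had -0.35.

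The third question was how far the choice of reference moves a result. let-7c-5p, a let-7 miRNA that the study measured by qPCR relative to miR-103, was set against each member within each library. Against miR-103-3p, let-7c-5p had 61.7, 36.4 and 81.1 times as many counts in sham mice 1, 2 and 3 and 20.6, 38.7 and 42.4 times as many in Acu/LFES mice 4, 5 and 6, so that the groups overlapped through sham mouse 2. The difference on the log2 scale was -0.81, or 42.9% lower (two-sided exact permutation test, p = 0.3). Without mouse 4 it was -0.48, and over all fits without a single mouse it went from -1.13 to -0.48. It was -0.25 against miR-423-5p, -0.56 against miR-425-5p, -0.61 against miR-191-5p and -1.74 against miR-423-3p, or 16.1%, 32.0%, 34.4% and 70.0% lower (two-sided exact permutation tests, p = 0.4, 0.2, 0.2 and 0.1). When single mice were left out, the difference against miR-423-5p went from -0.36 to -0.06, with -0.15 without mouse 1 and -0.06 without mouse 5. It went from -0.70 to -0.38 against miR-425-5p and from -0.88 to -0.43 against miR-191-5p. Against the geometric mean of the 5 members it was -0.79, or 42.2% lower (p = 0.1, the same exact permutation test), and the groups did not overlap. Adjusted over these 6 references, the p ranged from 0.3 to 0.4. The mean ratio was lower with every reference, and the smallest and the largest difference were those to the arms of a single hairpin. Library scaling without a reference moved let-7c-5p as well. Its fitted log2 difference was -0.93 with TMM factors (SE 0.26, adjusted p = 0.269, edgeR), where the groups did not overlap, and -0.22 with total counts.

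When whole libraries were scaled to a single member, the miRNAs with an unadjusted p under 0.05 changed in number and direction. With miR-103-3p there were 7 higher and 0 lower among the 259, with miR-191-5p 15 and 0, with miR-425-5p 29 and 1, and with miR-423-5p 60 and 0. With miR-423-3p there was 1 higher and 48 lower. The geometric mean of the 5 members gave 19 higher and 4 lower, nearest to the 15 and 8 of TMM factors. It holds both arms of miR-423, which went in opposite directions. Scaling to a member shifts every miRNA against that member's own group difference. The directions of these counts therefore largely follow from the differences of the members given above and are not separate results. Over all miRNAs tested, the median on the log2 scale was 0.11 with miR-103-3p, 0.35 with miR-191-5p, 0.43 with miR-425-5p, 0.73 with miR-423-5p, -0.70 with miR-423-3p and 0.18 with the geometric mean. In each of these fits 0 miRNAs passed an adjusted p of 0.05 with edgeR.

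**Figure D5:**
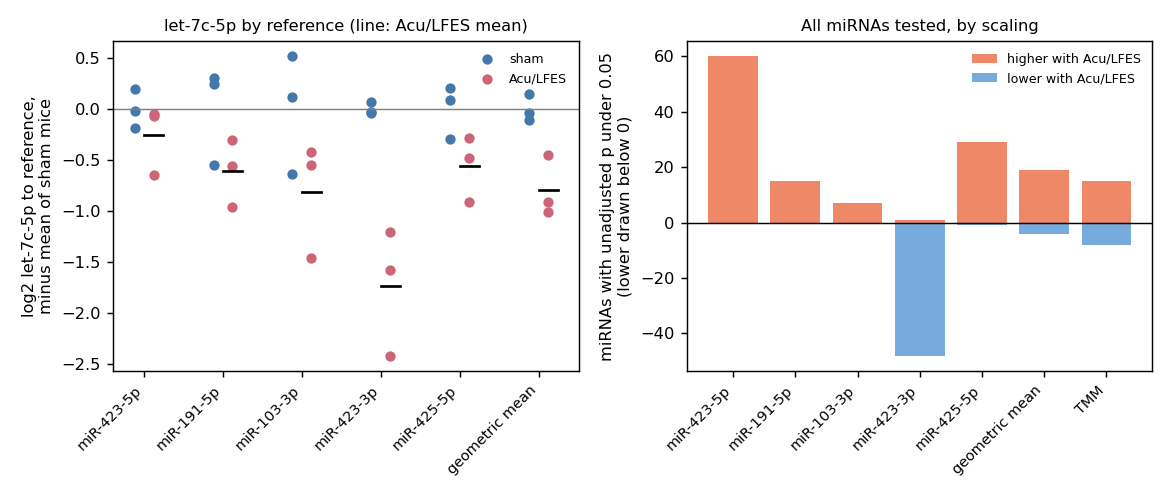
Left, log2 ratio of let-7c-5p to each reference in each mouse, minus the mean of the sham mice (sham in blue, Acu/LFES in red, black line the Acu/LFES mean), which goes from -0.25 with miR-423-5p to -1.74 with miR-423-3p. Right, number of the 259 miRNAs with an unadjusted p under 0.05 when libraries are scaled to each member, to their geometric mean or by TMM, with those lower drawn below 0.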

How the data were processed

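The table deposited by the authors holds whole read counts for each mature miRNA in every mouse, not normalized. The submitters' processing notes name bcl2fastq, cutadapt 1.6 and DESeq2 1.26.0. The aligner, the counter, the annotation and the mismatches allowed, which decide how reads of miR-103-3p and miR-107-3p are split, are not given in the sources used here. Groups came from the sample titles, whose mouse numbers are not shared between groups. TMM factors were computed with edgeR 4.0.16 (R 4.3.3) on these counts, followed by its quasi-likelihood test over the 259 miRNAs that pass its default filter, with Benjamini-Hochberg adjustment and a threshold of 0.05. Standard errors and 95% intervals came from the F statistic. For ratios, the exact permutation test was used, two-sided (scipy 1.17.1), which with 3 mice against 3 cannot go below 0.1. Spread was taken on log2(CPM + 0.5). On simulated data with 200 changed miRNAs, the test recovered 8 of 51 that were changed by 1 log2 unit, 27 of 53 by 2 units and 45 of 59 by 3 units, counted among those passing the filter. Alternatives were DESeq2 1.42.0, other scalings, filters and pseudocounts, identical rows collapsed, and each mouse left out. A total of 67 rows for other organisms, with 104 counts, stayed in the library sizes. Members, lists and the rule for named miRNAs (the members, their opposite arms, let-7c-5p, listed references and markers, the 3 miRNAs most alike to each member and the 5 steadiest) were chosen with earlier results of these data known.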

Additional observations from a re-analysis of the deposited data

How the results depend on the processing

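With total counts in place of TMM factors, the log2 fold change reversed to 0.50 for miR-103-3p, 0.27 for miR-191-5p, 0.29 for miR-425-5p and 0.51 for the sum of miR-103-3p and miR-107-3p, and the median of the members moved to 0.29. The median of all miRNAs moved alike, from 0.05 to 0.71, and with totals taken without the abundant miR-486 pair the members' median was -0.23 and that of all miRNAs 0.14. Total counts add both rows of this pair, which hold the same counts. With identical rows collapsed and TMM factors, miR-103-3p, miR-191-5p and miR-425-5p were at -0.18, -0.34 and -0.37. Total counts with these rows collapsed were not run. DESeq2 called 8 miRNAs at an adjusted p under 0.05 and 0 members. The number of all miRNAs with an unadjusted p under 0.05 was 53 with no filter, where more rows are tested, 7, 15, 60 and 49 with scaling to miR-103-3p, miR-191-5p, miR-423-5p and miR-423-3p, and from 19 to 48 with each mouse left out. In those fits miR-103-3p ranged from -0.46 to 0.27 on the log2 scale and the sum from -0.44 to 0.28, and both reversed without sham mouse 2 (also, for the sum, at 0.01 without Acu/LFES mouse 5). The differences in log2 ratio went from -0.67 to 0.33 for miR-191-5p to miR-103-3p, from -0.15 to 0.61 for miR-103-3p to miR-425-5p and from -0.16 to 0.25 for miR-191-5p to miR-425-5p. miR-423-5p was at -0.02 with total counts, where its difference was lost. miR-423-3p kept its direction under every alternative run, apart from scaling to miR-423-3p itself, which sets it to 0. The groups did not overlap in miR-423-3p with TMM factors, so the fits without a single mouse could hardly reverse it and add no support. The arm ratio is taken within a library, so no scaling can move it. Its groups do not overlap, so leaving out a single mouse cannot reverse it, and its kept direction adds no support. With 3 mice a group, the 95% intervals of miR-103-3p, miR-191-5p and miR-425-5p include 0 and are wide, so a difference of moderate size could have been missed.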
